A study of Homo sapiens with 12 samples.

Results

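Axon guidance genes encode secreted and membrane-bound cues and their receptors, and 66 of the 29972 gene rows in the deposited tables belong to the families examined here. Members were taken by gene name: 20 semaphorins (SEMA), 9 plexins (PLXN), both neuropilins (NRP), 8 ephrins (EFN), 14 Eph receptors (EPH), 3 SLIT and 4 ROBO genes, NTN1, NTN4, and UNC5A to UNC5D. The rule used no measured value.

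Bulk polyadenylated RNA was sequenced from a pair of human triple-negative breast cancer lines, MDA-MB-436 and BoM-1833, the latter a subline of MDA-MB-231 selected for growth in bone. In each line, 3 libraries came from cells given a non-targeting siRNA pool (siNT) and 3 from cells given siRNA against PHF19 (siPHF19). The protocol lists 2 PHF19 siRNAs and states that mixtures were made 1:1, and no library is labelled with a single one. Cells of all 12 libraries were reverse transfected with Lipofectamine RNAiMAX at 5 nM siRNA in total and used after 72 h, in DMEM with serum. PHF19 is a Polycomb-like accessory subunit of PRC2, the complex that methylates lysine 27 of histone H3. The control and PHF19 siRNAs came from different makers, and no untransfected cells were analysed here. Nothing in the labels says that the 3 libraries of a group came from separate cultures, so p-values measure the spread between these libraries, which may be technical.

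Semaphorins signal through plexins, and the secreted class 3 semaphorins mostly need neuropilins as co-receptors. Neuropilins also bind vascular endothelial growth factors. Ephrins and Eph receptors signal in both directions at cell contacts, SLIT proteins repel cells through ROBO receptors, and netrins act through DCC and UNC5 receptors. Outside the nervous system these families are known for their roles in vessel growth, epithelial boundaries and the motility of tumor cells.

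PHF19 read as labelled in all 12 libraries. In MDA-MB-436 its normalized counts were 2942, 3354 and 3763 in the siNT libraries and 340.1, 326 and 315 in the siPHF19 libraries, and in BoM-1833 they were 1711, 1684 and 1669 in the siNT libraries and 181, 201 and 173 in the siPHF19 libraries. PHF19 had a log2 fold change of -3.36 (SE 0.11, DESeq2 adjusted p = 2.12e-211) in the first line and -3.19 (SE 0.10, DESeq2 adjusted p = 1.53e-218) in the second, per the authors' deposited table. Depth ran from 15186338 to 24010271 reads per library of MDA-MB-436 and from 13748100.0 to 21258567 per library of BoM-1833. ESR1 and PGR were at or below 3.97 normalized counts in every library, while ERBB2 was measured at means of 1041 to 1120. Of 9 markers of blood, vessel, fibroblast and nerve cells, CD3E was at 0 in all 12 libraries, and PTPRC and CDH5 stayed at or below 21.2. CD68, MBP and COL1A1 in both lines, SNAP25 in MDA-MB-436, and PECAM1 and PDGFRB in BoM-1833 had group means of 78.8 or more; COL1A1 was called higher in both lines and CD68 lower in MDA-MB-436. The summed level of these 9 markers ranged from 1921 to 2171 in siNT and from 1931 to 2108 in siPHF19 libraries of MDA-MB-436; the BoM-1833 sums were 5890.0 to 6534 and 6234 to 6588. The epithelial list held EPCAM, CDH1, KRT8, KRT18, KRT5 and KRT14. Its sum moved with the siRNA, from 5822 to 6422 up to 7664 to 7885 in MDA-MB-436. BoM-1833 sums moved from 16057 to 17595 up to 24670.1 to 25876. KRT8 and KRT18 made up most of each sum and were called higher in both lines. EPCAM was called in neither, with a log2 fold change of 0.21 for MDA-MB-436 against -0.39 for BoM-1833. CDH1, KRT5 and KRT14 stayed at or below 27.6 normalized counts and had no adjusted p. The mesenchymal-type list of 4 genes summed to 78889.0 to 85543 in siNT and 70371 to 71683 in siPHF19 libraries of BoM-1833, with VIM and ZEB1 called lower; in MDA-MB-436 the sums were 24569 to 27137 and 26240.0 to 27625, with CDH2 called higher. The part of these lists in the results below was not tested. In RNA from a whole culture, fewer cells of a kind and less RNA per cell cannot be told apart.

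Upstream windows of 4 members are shown because PHF19 and its relatives bind DNA rich in unmethylated CG pairs. Each window runs from 250 bases before to 50 after a RefSeq start (GRCh38.p14), written 5′ to 3′ on the gene's strand, with every CG pair in capitals. These genes were chosen after their values were seen: NRP2 fell in both lines, EFNA1 rose in both, and EFNB2 and SEMA3D differed between lines.
NRP2 (chr2:205682251-205682550, plus strand, 33 CG): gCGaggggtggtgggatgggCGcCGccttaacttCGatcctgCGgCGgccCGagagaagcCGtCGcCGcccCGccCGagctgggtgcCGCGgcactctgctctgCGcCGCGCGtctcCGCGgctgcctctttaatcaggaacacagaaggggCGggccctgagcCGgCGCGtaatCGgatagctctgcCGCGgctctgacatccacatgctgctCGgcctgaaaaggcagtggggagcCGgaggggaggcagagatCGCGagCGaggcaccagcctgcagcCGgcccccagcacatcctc
EFNA1 (chr1:155127626-155127925, plus strand, 28 CG): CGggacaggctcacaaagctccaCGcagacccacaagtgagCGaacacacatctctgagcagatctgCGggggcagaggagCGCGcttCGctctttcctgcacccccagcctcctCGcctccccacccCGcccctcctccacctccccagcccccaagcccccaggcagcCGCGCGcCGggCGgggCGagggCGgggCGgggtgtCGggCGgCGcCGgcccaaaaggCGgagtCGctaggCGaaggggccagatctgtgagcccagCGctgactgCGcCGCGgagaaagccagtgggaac
EFNB2 (chr13:106535613-106535912, minus strand, 49 CG): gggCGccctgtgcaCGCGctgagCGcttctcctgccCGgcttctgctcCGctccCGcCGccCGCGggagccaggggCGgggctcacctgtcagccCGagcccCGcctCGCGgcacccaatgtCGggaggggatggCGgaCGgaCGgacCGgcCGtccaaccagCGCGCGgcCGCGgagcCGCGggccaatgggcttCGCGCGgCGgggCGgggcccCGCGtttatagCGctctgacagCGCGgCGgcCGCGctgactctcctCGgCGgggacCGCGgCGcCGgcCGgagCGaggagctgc
SEMA3D (chr7:85187007-85187306, minus strand, 14 CG): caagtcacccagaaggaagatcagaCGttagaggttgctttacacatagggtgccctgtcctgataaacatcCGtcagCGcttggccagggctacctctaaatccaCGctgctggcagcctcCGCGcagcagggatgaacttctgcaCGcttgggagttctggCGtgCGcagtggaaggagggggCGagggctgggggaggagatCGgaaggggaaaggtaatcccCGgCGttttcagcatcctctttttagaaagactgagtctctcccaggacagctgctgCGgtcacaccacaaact
Of the 66 members, 57 matched a window in the RefSeq table, and the median of each member's most CG-rich window was 28 CG pairs. NRP2 and EFNB2 lay above that median, EFNA1 at it and SEMA3D below it. The 12 members with a window that were called lower in at least 1 line had a median of 44.5 CG pairs, the 9 called higher had 22, and the 29 tested but never called had 28. The ranges overlapped, at 11 to 52, 6 to 47 and 6 to 54 in the same order. NRP1, EFNB3 and NTN1 were called members among the 9 without a window. Over all genes counted the same way the medians were 30 for those called lower, 30 for those called higher and 28 for those never called. These counts describe sequence only; no binding or methylation was measured in these libraries.

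In MDA-MB-436, 53 of the 66 guidance genes had enough reads to be tested, and 18 of them passed an adjusted p of 0.05 in the authors' deposited DESeq2 table. That is 34.0% of those tested, where 22.1% of all 14243 genes tested were called. Of the 18, 8 rose (10.5% of all genes did) and 10 fell (11.5% of all genes did). The median log2 fold change of tested members was 0.01 against -0.00224 over all genes, and the median absolute change was 0.33 against 0.18. The siNT and siPHF19 counts did not overlap for 26 members, 49.1% of those tested, against 42.2% of all genes. In BoM-1833, 49 members were tested and 9 were called, 3 higher and 6 lower. That is 18.4% against 10.9% of all 12906 genes tested, with 5.21% of all genes higher and 5.72% lower. The median log2 fold change was 0.04 against -0.00354, the median absolute change was 0.17 against 0.12, and groups did not overlap for 15 members, 30.6% against 31% of all genes. Of ligands tested, 10 of 30 were called in MDA-MB-436 and, in the other line, 5 of 26. Of receptors, 8 of 23 and 4 of 23 were called in the same order. The members tested passed a filter on low counts, so these shares do not cover all 66. In MDA-MB-436 the count of called members was 10 when siNT replicate 2, siPHF19 replicate 1 or siPHF19 replicate 3 was left out in turn, and 10 with the replicate number as a block. Over all genes of this line the block gave 1610 calls in place of 3143.

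**Figure D1:**
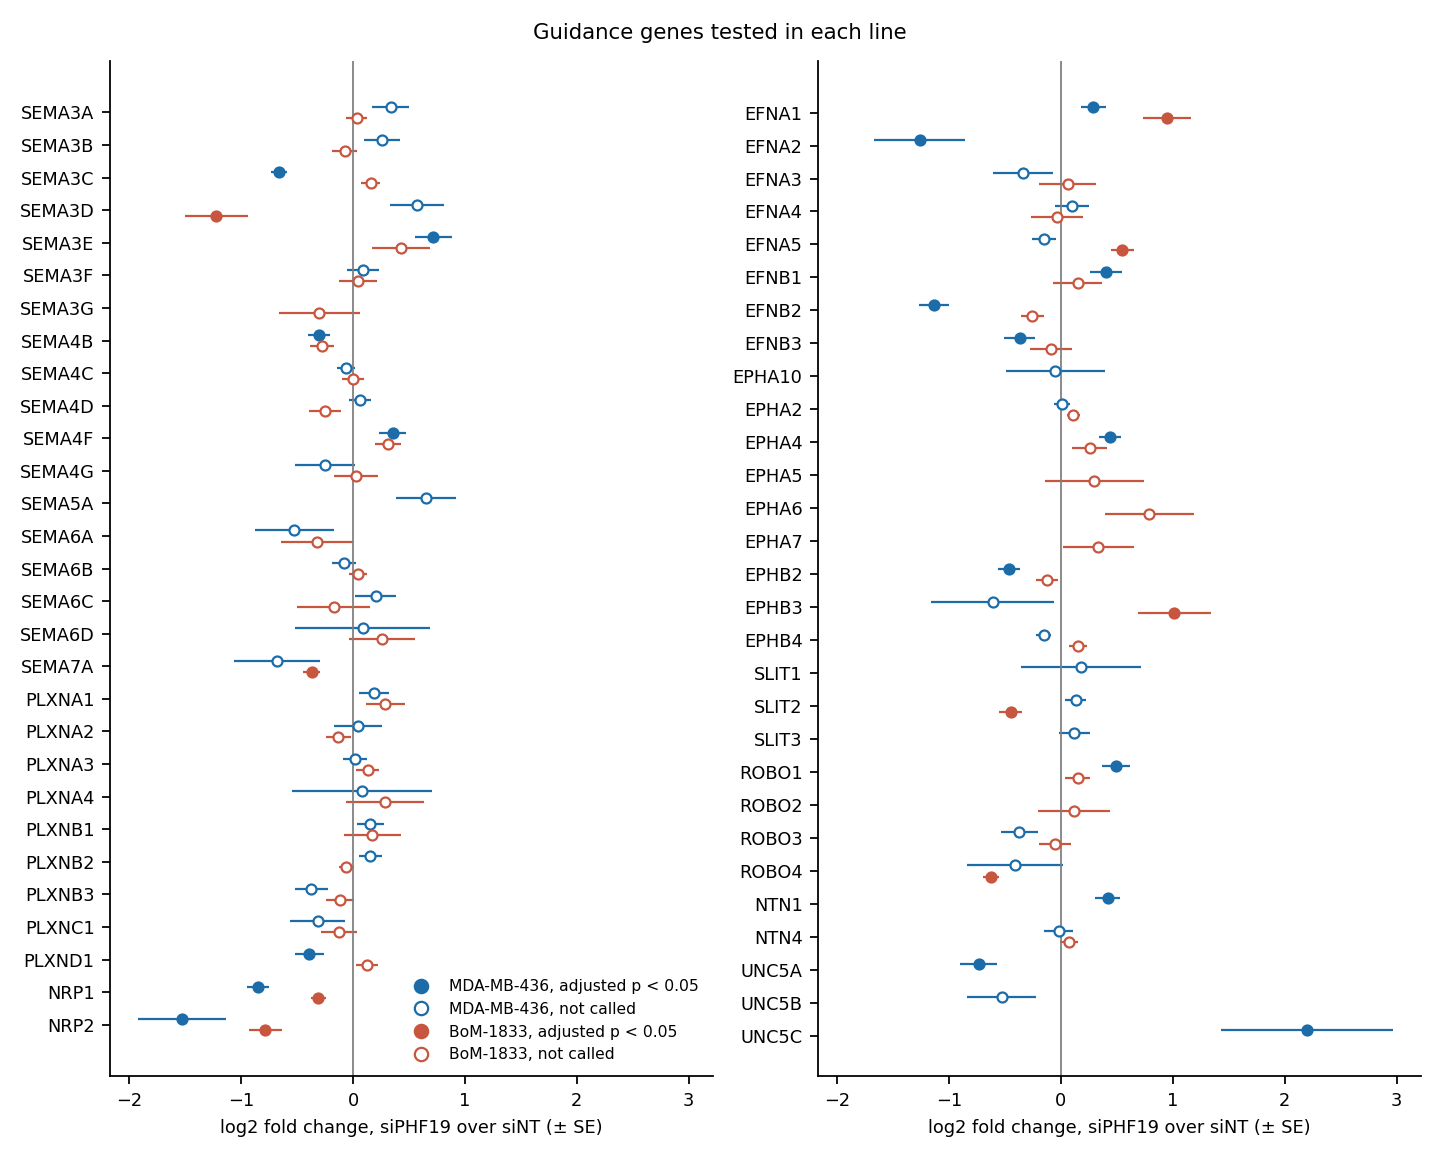
Log2 fold change (x axis) of every guidance gene tested in MDA-MB-436 (blue) or BoM-1833 (red), siPHF19 over siNT, with bars for the standard error and filled points for genes called at an adjusted p under 0.05. Called changes lie on both sides of 0 in either line, and both neuropilins lie below 0 in both lines.

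A few members stood well above the rest in control cells. Levels between genes are given as RPKM, the siNT reads scaled to library size and to kilobases of annotated exon, mean ± SD over 3 libraries. In MDA-MB-436 the order began with the secreted ligand SEMA3C at 81.8 ± 5.71 and the receptor EPHA2 at 50.8 ± 3.90. EPHB4 at 20.3 ± 0.385 and SLIT2 at 18.6 ± 2.77 came next and did not differ beyond their spread, nor did SEMA4B, SEMA6B and SEMA4C at 10.2 ± 1.17, 10.1 ± 1.01 and 10.1 ± 0.548. In BoM-1833 EPHA2 led at 148 ± 4.78, followed by NRP1 at 54.0 ± 4.55 and PLXNA1 at 28.95 ± 5.53. SEMA7A, PLXNB2 and NTN4 stood at 23.2 ± 1.41, 21.0 ± 1.19 and 20.8 ± 2.17, within each other's spread. The lines were normalized in separate tables, so no test of level was made between them. No read fell on EPHA1, ROBO2, SEMA3G or UNC5D in MDA-MB-436, or on EPHA1, SEMA4A, SEMA5B, SLIT3 or UNC5A in BoM-1833. A count of 0 over the 6 libraries of a line allows up to 0.0264 CPM of MDA-MB-436 and 0.0296 CPM of BoM-1833, with counting error alone in view.

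**Figure D2:**
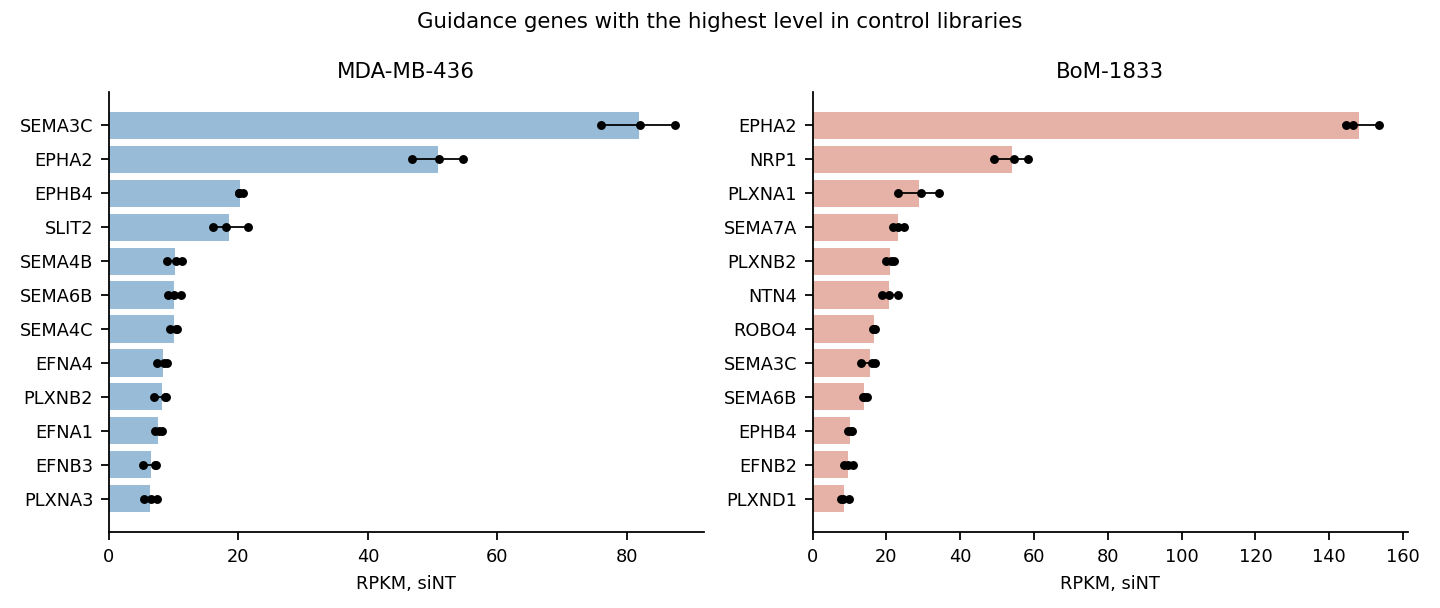
RPKM (x axis) in siNT libraries for the 12 guidance genes with the highest means in each line; bars are means, lines are SD and points are the 3 libraries. SEMA3C and EPHA2 stand above the other members in MDA-MB-436, and EPHA2 and NRP1 do in BoM-1833.

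Both neuropilin genes fell in both lines. NRP1 (chr10:33177492-33336262 on the minus strand, GRCh38) encodes the co-receptor of SEMA3A and of VEGF, and NRP2 (chr2:205681990-205798133 on the plus strand) that of SEMA3F and VEGFC. NRP1 counts in MDA-MB-436 were 1057, 1133 and 1115 in the siNT libraries and 585, 678 and 563 in the siPHF19 libraries. NRP1 counts in BoM-1833 were 9583, 10380.1 and 11311 in the siNT libraries and 8551, 8459 and 8217 in the siPHF19 libraries. Every siPHF19 library lay below every siNT library in both lines, with the larger drop in MDA-MB-436. NRP1 fell by 0.85 on the log2 scale in MDA-MB-436 per the authors' deposited table (SE 0.10, DESeq2 adjusted p = 5.32e-16). In BoM-1833 it fell by 0.31 per the authors' deposited table (SE 0.07, DESeq2 adjusted p = 7.11e-05). The difference between lines, MDA-MB-436 minus BoM-1833, was -0.54 (SE 0.12, adjusted p = 0.000337) by the z test described for line differences. NRP2 was a low-count gene in MDA-MB-436, at 42.6, 44.2 and 59.9 in the siNT libraries and 26.2, 13.3 and 11.6 in the siPHF19 libraries. Its counts in BoM-1833 were 298, 392 and 359.7 in the siNT libraries and 226, 186 and 195 in the siPHF19 libraries. Here too the groups did not overlap in either line. NRP2 fell by 1.53 (SE 0.39, DESeq2 adjusted p = 0.0011) in MDA-MB-436 and, in the other line, by 0.78 (SE 0.15, DESeq2 adjusted p = 4.9e-06), per the authors' deposited table. The difference between lines for NRP2, -0.75 (SE 0.42, adjusted p = 0.378), did not pass the test. Both genes overlap an annotated gene on the opposite strand, and whether the authors' counting used strand is not given in the sources used here.

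**Figure D3:**
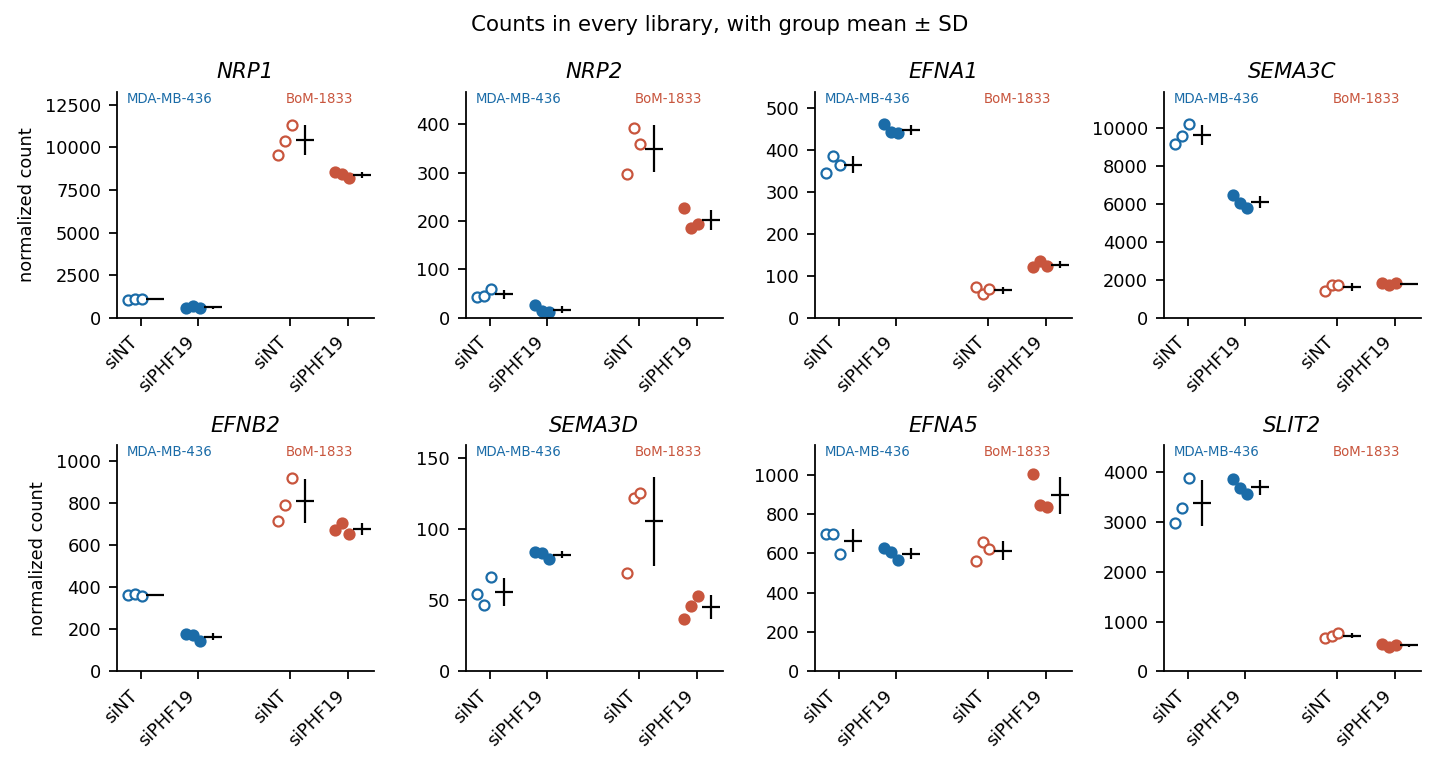
Normalized counts (y axis, from 0) of 8 guidance genes in every library, open circles for siNT and filled circles for siPHF19, with mean ± SD in black over 3 libraries. NRP1 and NRP2 fall and EFNA1 rises in both lines, while SEMA3C and EFNB2 fall in MDA-MB-436, SEMA3D and SLIT2 fall in BoM-1833 and EFNA5 rises in BoM-1833.

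Among the class 3 semaphorins, the secreted ligands of the neuropilin and plexin receptors, 2 of 6 tested members were called in MDA-MB-436 and, in the other line, 1 of 7. Over all genes tested, 22.1% and 10.9% were called in the same order. SEMA3C (chr7:80742538-80922359 on the minus strand), the most abundant guidance ligand of MDA-MB-436, had counts of 9112, 9563 and 10172 in the siNT libraries and 6432, 6049 and 5769.7 in the siPHF19 libraries. The siPHF19 libraries were all lower, with no overlap. SEMA3C fell by 0.66 there per the authors' deposited table (SE 0.07, DESeq2 adjusted p = 6.26e-18). In BoM-1833 its counts were 1389, 1751 and 1710.5 in the siNT libraries and 1842, 1739.7 and 1822 in the siPHF19 libraries, groups that overlap, with a log2 fold change of 0.16 per the authors' deposited table (SE 0.09, DESeq2 adjusted p = 0.297). SEMA3D (chr7:84995553-85186855 on the minus strand) was called in the other line. Its counts in BoM-1833 were 69.1, 122 and 125 in the siNT libraries and 36.8, 46.0 and 52.9 in the siPHF19 libraries. The siNT libraries were spread, replicate 1 lying near the siPHF19 group, yet the groups did not overlap. SEMA3D fell by 1.22 in BoM-1833 per the authors' deposited table (SE 0.28, DESeq2 adjusted p = 0.0004). In MDA-MB-436 its counts were 54.6, 46.5 and 66.0 in the siNT libraries and 83.9, 82.8 and 79.2 in the siPHF19 libraries, all higher after siPHF19, but the log2 fold change of 0.57 did not pass the test per the authors' deposited table (SE 0.24, DESeq2 adjusted p = 0.0748). Its call depended on the program: edgeR and limma both called SEMA3D higher in MDA-MB-436. SEMA3E, the ligand that binds PLXND1 without a neuropilin, had MDA-MB-436 counts of 117, 107 and 108 in the siNT libraries and 191, 179.7 and 174 in the siPHF19 libraries. Every siPHF19 library was higher. SEMA3E rose by 0.72 per the authors' deposited table (SE 0.17, DESeq2 adjusted p = 0.000228); in BoM-1833 the value was 0.43 (SE 0.26, DESeq2 adjusted p = 0.355). SEMA3A, the classical collapsing cue that acts through NRP1, was called in neither line per the authors' deposited table, with a log2 fold change of 0.33 in MDA-MB-436 (SE 0.16, DESeq2 adjusted p = 0.135) and, for BoM-1833, of 0.03 (SE 0.10, DESeq2 adjusted p = 0.918).

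Of the membrane-bound semaphorins, which act at cell contacts, 2 of 11 tested were called in MDA-MB-436 and, in the other line, 1 of 10. These are 18.2% and 10%, against 22.1% and 10.9% of all genes tested. SEMA4B counts in MDA-MB-436 were 1205, 1355 and 1471 in the siNT libraries and 1058, 1166 and 1040.3 in the siPHF19 libraries, lower after siPHF19 with no overlap. SEMA4B fell by 0.30 per the authors' deposited table (SE 0.10, DESeq2 adjusted p = 0.0124), and its value in BoM-1833 was -0.28 (SE 0.11, DESeq2 adjusted p = 0.0727). By a DESeq2 refit SEMA4B lost its MDA-MB-436 call without siNT replicate 2 or siPHF19 replicate 1 or 3, with adjusted p up to 0.117, and was called lower in BoM-1833 without siNT replicate 1 (-0.34) or siPHF19 replicate 1 (-0.39). SEMA4F counts in MDA-MB-436 were 262, 278 and 256 in the siNT libraries and 337, 339.6 and 344 in the siPHF19 libraries, higher with no overlap. SEMA4F rose by 0.36 there per the authors' deposited table (SE 0.12, DESeq2 adjusted p = 0.019). In BoM-1833 its log2 fold change was 0.31 (SE 0.11, DESeq2 adjusted p = 0.0533) per the authors' deposited table, just outside the threshold, and edgeR and limma called it. SEMA4F lost its call in MDA-MB-436 whenever any 1 of the 6 libraries was left out, with adjusted p up to 0.147. SEMA7A, the lipid-anchored semaphorin that binds PLXNC1 and integrins, had counts of 1480.4, 1553 and 1400.5 in the siNT libraries and 1108, 1125 and 1200.1 in the siPHF19 libraries in BoM-1833. No library overlapped. SEMA7A fell by 0.37 per the authors' deposited table (SE 0.08, DESeq2 adjusted p = 6.34e-05). In MDA-MB-436 its counts were low, from 35.2 ± 8.21 to 21.9 ± 4.39 (SD, n = 3). The groups did not overlap there by a narrow gap, and the log2 fold change of -0.68 was not called per the authors' deposited table (SE 0.38, DESeq2 adjusted p = 0.204). The difference between lines for SEMA7A, -0.31 (SE 0.39, adjusted p = 0.77), did not pass the z test.

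Plexins, the signalling receptors for semaphorins, were tested in full in both lines, and 1 of 9 was called in MDA-MB-436 and, in the other line, 0 of 9. The shares called over all genes tested were 22.1% and 10.9%. In BoM-1833 no plexin had an unadjusted p under 0.05 by DESeq2 per the authors' deposited table, edgeR with TMM called 0, and edgeR without a count filter called 1, PLXNA1. PLXND1, the receptor of SEMA3E, had counts of 349, 424 and 413 in the siNT libraries and 321, 303 and 283 in the siPHF19 libraries in MDA-MB-436. The siPHF19 libraries were lower with no overlap. PLXND1 fell by 0.39 per the authors' deposited table (SE 0.13, DESeq2 adjusted p = 0.0137), against 0.12 in BoM-1833 (SE 0.10, DESeq2 adjusted p = 0.538). Its call in MDA-MB-436 was lost when siNT replicate 2 or 3 or any siPHF19 library was left out, with adjusted p up to 0.185. PLXNA3, the most counted plexin of MDA-MB-436, went from 1413 ± 198 to 1429 ± 97.5 (SD, n = 3), a log2 fold change of 0.02 per the authors' deposited table (SE 0.11, DESeq2 adjusted p = 0.933), whose sign turned when siNT replicate 1 or siPHF19 replicate 2 was left out. PLXNA1, the most counted plexin of BoM-1833, had counts of 4295, 5303 and 6318 in the siNT libraries and 6979, 6432 and 6042 in the siPHF19 libraries. Its siNT libraries were widely spread and overlapped the siPHF19 group, and its log2 fold change of 0.29 was not called per the authors' deposited table (SE 0.17, DESeq2 adjusted p = 0.346). Without siNT replicate 3 of the line, a DESeq2 refit called PLXNA1 higher at 0.31 for MDA-MB-436 and 0.43 for BoM-1833.

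Of the 8 ephrins, all tested in MDA-MB-436, 5 were called there, 2 higher and 3 lower, where 22.1% of all genes were called; in BoM-1833, 2 of 7 were called, both higher, where 10.9% of all genes were. EFNA1 (chr1:155127460-155134857 on the plus strand), a membrane-anchored ligand of EPHA2, had counts of 345, 386 and 363 in the siNT libraries and 460.1, 441 and 439 in the siPHF19 libraries in MDA-MB-436. In BoM-1833 its counts were 73.0, 56.3 and 67.7 in the siNT libraries and 121, 136 and 124 in the siPHF19 libraries. All siPHF19 libraries were higher in both lines, and the change in BoM-1833 was the larger. EFNA1 rose by 0.95 in BoM-1833 per the authors' deposited table (SE 0.22, DESeq2 adjusted p = 0.00029). In MDA-MB-436 it rose by 0.29 (SE 0.11, DESeq2 adjusted p = 0.0407) per the authors' deposited table, a call lost when any 1 of the 6 libraries was left out, with adjusted p up to 0.242. The difference between lines, -0.66 (SE 0.24, adjusted p = 0.0999), did not pass the z test.

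EFNB2 (chr13:106489731-106535662 on the minus strand), the EPHB4 ligand known from arterial vessels, had counts of 366, 367 and 358 in the siNT libraries and 177, 173 and 147 in the siPHF19 libraries in MDA-MB-436. The 3 siNT libraries lay close together and well above the siPHF19 group. EFNB2 fell by 1.14 per the authors' deposited table (SE 0.14, DESeq2 adjusted p = 4.42e-15). In BoM-1833 its counts were 714, 793 and 922 in the siNT libraries and 671, 708 and 653 in the siPHF19 libraries, not overlapping, and its log2 fold change of -0.26 was not called per the authors' deposited table (SE 0.10, DESeq2 adjusted p = 0.102). Without siNT replicate 1 of BoM-1833 a DESeq2 refit called EFNB2 lower there, at -0.34 with adjusted p = 0.00731. EFNA5 (chr5:107376889-107670895 on the minus strand), the most counted A-type ephrin of both lines, had counts of 561, 656 and 624 in the siNT libraries and 1003, 845 and 835 in the siPHF19 libraries in BoM-1833. Every siPHF19 library was higher there. EFNA5 rose by 0.55 per the authors' deposited table (SE 0.10, DESeq2 adjusted p = 3.91e-06). In MDA-MB-436, where its counts were 699, 696 and 596 in the siNT libraries and 626, 605 and 566 in the siPHF19 libraries and the groups overlapped, the value was -0.15 per the authors' deposited table (SE 0.10, DESeq2 adjusted p = 0.326).

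The other 3 ephrin calls were in MDA-MB-436. EFNA2 counts there were 42.6, 40.3 and 31.8 in the siNT libraries and 9.81, 21.5 and 15.8 in the siPHF19 libraries, low but not overlapping, and EFNA2 fell by 1.26 per the authors' deposited table (SE 0.41, DESeq2 adjusted p = 0.0124). EFNB1 counts were 191, 229 and 229 in the siNT libraries and 299.8, 255 and 306 in the siPHF19 libraries, all higher after siPHF19, and EFNB1 rose by 0.40 per the authors' deposited table (SE 0.15, DESeq2 adjusted p = 0.0301). EFNB3 counts were 325, 435 and 426 in the siNT libraries and 328, 292 and 299 in the siPHF19 libraries, groups that overlap, and EFNB3 fell by 0.37 per the authors' deposited table (SE 0.14, DESeq2 adjusted p = 0.0404). Each of these 3 calls was lost under several single-library omissions. EFNA2 was lost without siNT replicate 1 or 2 or siPHF19 replicate 1 or 3, with adjusted p up to 0.139. EFNB1 was lost without siNT replicate 1 or 2 or any siPHF19 replicate, with adjusted p up to 0.201, and EFNB3 without siNT replicate 2 or 3 or any siPHF19 replicate, with adjusted p up to 0.299. In BoM-1833 EFNB1 and EFNB3 had log2 fold changes of 0.15 and -0.09 per the authors' deposited table, neither called.

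Of the Eph receptors, the tyrosine kinases that ephrins bind, 2 of 6 tested were called in MDA-MB-436 and, in the other line, 1 of 8. All genes tested were called at shares of 22.1% and 10.9% in the same order. EPHA4, which binds both ephrin classes, had counts of 779, 846 and 926 in the siNT libraries and 1256, 1083 and 1113 in the siPHF19 libraries in MDA-MB-436, all higher after siPHF19. EPHA4 rose by 0.44 per the authors' deposited table (SE 0.10, DESeq2 adjusted p = 0.00016). EPHB2 counts in the same line were 846, 938 and 1042 in the siNT libraries and 709, 670.1 and 669.6 in the siPHF19 libraries, all lower. EPHB2 fell by 0.46 per the authors' deposited table (SE 0.10, DESeq2 adjusted p = 7.09e-05). The same receptors in BoM-1833 had log2 fold changes of 0.26 and -0.12 per the authors' deposited table, neither called. EPHB3 was low in BoM-1833, at 27.8, 25.8 and 23.8 in the siNT libraries and 50.7, 57.8 and 48.1 in the siPHF19 libraries. It rose with no overlap, by 1.01 per the authors' deposited table (SE 0.33, DESeq2 adjusted p = 0.0228), and lost its call without siNT replicate 2 or any siPHF19 replicate, with adjusted p up to 0.202. EPHA2, the most abundant receptor of both lines, went from 3965 ± 246 to 3987 ± 121 (SD, n = 3) in MDA-MB-436. BoM-1833 cells went from 10322 ± 374 to 11151 ± 232 (SD, n = 3). Its log2 fold changes of 0.01 (SE 0.07, DESeq2 adjusted p = 0.955) and 0.11 (SE 0.05, DESeq2 adjusted p = 0.201) were not called per the authors' deposited table. EPHB4, the receptor of EFNB2, was called in neither line per the authors' deposited table, at -0.16 in MDA-MB-436 (SE 0.07, DESeq2 adjusted p = 0.0934) and, for BoM-1833, 0.15 (SE 0.08, DESeq2 adjusted p = 0.277).

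Of the SLIT and ROBO genes, SLIT2 and ROBO4 were called in BoM-1833 and ROBO1 was called in MDA-MB-436, and of these 3 the difference between lines passed the z test for SLIT2. In BoM-1833, 1 of 1 SLIT and 1 of 4 ROBO genes tested were called, where 10.9% of all genes were. In MDA-MB-436, 1 of 3 ROBO genes tested was called, where 22.1% of all genes were. The differences, MDA-MB-436 minus BoM-1833, were 0.34 (SE 0.17, adjusted p = 0.285) for ROBO1 and 0.22 (SE 0.44, adjusted p = 0.868) for ROBO4. SLIT2 (chr4:20253260-20620561 on the plus strand), the repellent ligand, had counts of 670.0, 716 and 774 in the siNT libraries and 554, 488 and 535 in the siPHF19 libraries in BoM-1833. The siPHF19 libraries were lower with no overlap. SLIT2 fell by 0.45 per the authors' deposited table (SE 0.10, DESeq2 adjusted p = 0.000208). In MDA-MB-436, where SLIT2 was the fourth most abundant member, counts were 2981, 3272 and 3882 in the siNT libraries and 3856, 3672 and 3557 in the siPHF19 libraries and overlapped, with a log2 fold change of 0.13 per the authors' deposited table (SE 0.10, DESeq2 adjusted p = 0.374); without siNT replicate 3 it was called higher, at 0.24. No SLIT gene was called in MDA-MB-436: 0 of 3 passed, 0 had an unadjusted p under 0.05, and edgeR called 0. Over all genes tested there, 22.1% were called. ROBO4 (chr11:124883691-124898500 on the minus strand), a receptor known from endothelial cells, had counts of 1982, 1973 and 1942 in the siNT libraries and 1198, 1266 and 1359.8 in the siPHF19 libraries in BoM-1833. No siPHF19 library came near the siNT group. ROBO4 fell by 0.63 per the authors' deposited table (SE 0.07, DESeq2 adjusted p = 2.85e-15). Of the other endothelial genes followed in BoM-1833, KDR was called lower at -0.76 (SE 0.19, DESeq2 adjusted p = 0.00186) per the authors' deposited table. PECAM1 was at -0.01 there with DESeq2 adjusted p = 0.988 per the authors' deposited table, and CDH5 was at or below 1.91 normalized counts in every library. FLT1 had mean counts of 11.7 in siNT and 16.5 in siPHF19 libraries there. Its log2 fold change of 0.49 (SE 0.58) went the other way on few reads and had no adjusted p. The part of endothelial genes in the ROBO4 value was not tested. In MDA-MB-436 ROBO4 counts were low, from 24.2 ± 6.80 to 18.0 ± 1.82 (SD, n = 3), and its log2 fold change of -0.41 was not called per the authors' deposited table (SE 0.43, DESeq2 adjusted p = 0.555). ROBO1, the main SLIT receptor, had counts of 444, 499.9 and 625 in the siNT libraries and 726, 761 and 715 in the siPHF19 libraries in MDA-MB-436, all higher after siPHF19. ROBO1 rose by 0.49 per the authors' deposited table (SE 0.13, DESeq2 adjusted p = 0.000915), against 0.15 in BoM-1833 (SE 0.11, DESeq2 adjusted p = 0.5).

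Among the 66 members, the netrin and UNC5 calls came from MDA-MB-436. Of those tested there, 1 of 2 netrins and 2 of 3 UNC5 genes were called, where 22.1% of all genes were. In BoM-1833 NTN1 and all 4 UNC5 genes were too low to be tested. NTN4, the 1 netrin member tested in BoM-1833, was not called by DESeq2 or edgeR and had an unadjusted p above 0.05. NTNG2, from the pathway list below, was called lower in BoM-1833 at -0.92 per the authors' deposited table (SE 0.30, DESeq2 adjusted p = 0.0261). NTN1, the founding netrin, had counts of 622, 801 and 794 in the siNT libraries and 946, 983 and 1038 in the siPHF19 libraries in MDA-MB-436. All siPHF19 libraries were higher. NTN1 rose by 0.42 per the authors' deposited table (SE 0.11, DESeq2 adjusted p = 0.00166). UNC5A, a netrin receptor, had counts of 232, 253 and 311 in the siNT libraries and 177, 151 and 150.0 in the siPHF19 libraries, all lower, and fell by 0.74 per the authors' deposited table (SE 0.16, DESeq2 adjusted p = 9.2e-05). UNC5C had counts of only 4.37, 1.55 and 3.67 in the siNT libraries and 7.63, 16.6 and 18.0 in the siPHF19 libraries. It rose with no overlap, by 2.20 per the authors' deposited table (SE 0.77, DESeq2 adjusted p = 0.0244), a value that rests on few reads; 4 of 14 alternative fits gave UNC5C an adjusted p, and each of these called it. NTN4, a laminin-binding netrin, had a log2 fold change of -0.02 in MDA-MB-436 (SE 0.13, DESeq2 adjusted p = 0.942) and, in the other line, of 0.07 (SE 0.08, DESeq2 adjusted p = 0.695) per the authors' deposited table, neither called. UNC5B, the most counted UNC5 gene of BoM-1833, went from mean counts of 4.60 ± 2.36 to 2.90 ± 2.54 (SD, n = 3) there and was not tested. NRP1, NRP2, EFNB2, EPHA4, EPHB2, NTN1, UNC5A, UNC5C and ROBO4 each overlap an annotated gene on the opposite strand, so their reads could include those of the partner.

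A test existed in each line for 44 members, and 3 of them were called in both with the same sign: EFNA1 higher and NRP1 and NRP2 lower. Among all 12290 genes tested in both, 5.97% were called in both and 5.67% in both with the same sign. The log2 fold changes of 26 of the 44 had the same sign, 59.1% against 64.3% of all genes. EFNA1 was lost from this group when any 1 library of MDA-MB-436 was left out, and both neuropilins kept their calls in both lines in every program and single-library omission run. The response to the siRNA was then compared between lines by a z test: the deposited log2 fold changes were subtracted, divided by the root of their summed squared standard errors, and the p-values adjusted over all genes tested in both. The difference passed an adjusted p of 0.05 for 7 members, 15.9% of the 44, where 4.89% of all genes passed. For 5 of the 7 the value in MDA-MB-436 was the lower one: SEMA3C by -0.82 (SE 0.11, adjusted p = 3.77e-10), EFNB2 by -0.88 (SE 0.17, adjusted p = 3.14e-05), EFNA5 by -0.70 (SE 0.15, adjusted p = 0.000161), NRP1 by -0.54 (SE 0.12, adjusted p = 0.000337) and PLXND1 by -0.51 (SE 0.16, adjusted p = 0.0333), each MDA-MB-436 minus BoM-1833 on the log2 scale. SEMA3D at 1.79 (SE 0.37, adjusted p = 0.000148) and SLIT2 at 0.58 (SE 0.14, adjusted p = 0.0019) were the reverse. NRP1 fell in both lines and EFNB2 had negative values in both, so for these the lines differed in size. SEMA3C, SEMA3D, EFNA5, SLIT2 and PLXND1 had values of opposite sign. Each of these was called in only 1 line per the authors' deposited table. The sign in the other line is therefore uncertain, and opposite responses are not shown by that test. The PLXND1 difference was lost when 9 of the 12 libraries were left out in turn, with adjusted p up to 0.2505, and under the edgeR interaction, at adjusted p = 0.0642.

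**Figure D4:**
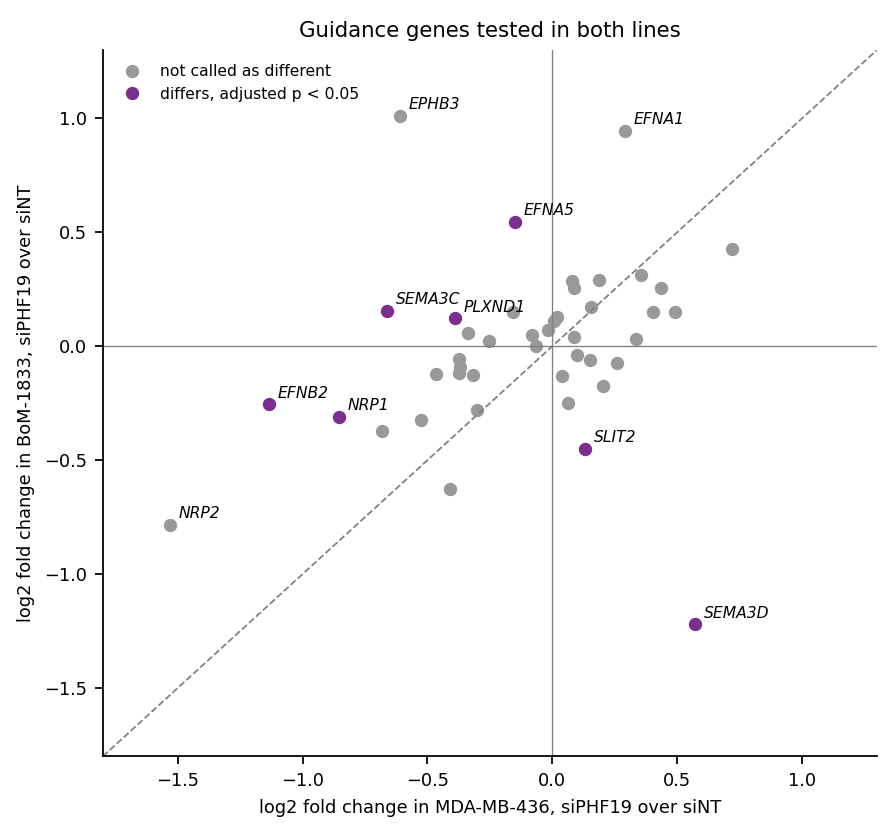
Log2 fold change in MDA-MB-436 (x axis) against BoM-1833 (y axis) for the 44 guidance genes tested in both lines, with the 7 that differ between lines in purple and the line of equal change dashed. NRP1 and NRP2 lie in the lower left and EFNA1 in the upper right, while SEMA3D lies in the lower right.

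Short RNAs can also lower transcripts that pair with their seed, so the 3′ UTRs of members were searched for AAACTG, a word that an earlier pass over these tables had found in the genes lowered in both lines. It is therefore no independent evidence here, and the sequences of the siRNAs are not given in the sources used here. The word was searched on the sense strand of each gene's longest 3′ UTR in GENCODE 29. It was present in 7 of the 10 members lower in MDA-MB-436, 3 of the 8 higher and 20 of the 35 not called. In BoM-1833 it was present in 4 of 6 lower, 1 of 3 higher and 24 of 40 not called. Over all genes of MDA-MB-436 it was present in 55.0% of those lower, 48.7% of those higher and 45.5% of those not called, and in BoM-1833 in 66.8%, 39.0% and 46.6%. By both lines together it was present in 2 of 2 members lower, 0 of 1 higher and 12 of 24 called in neither, and over all genes in 74.1% of 363, 38.0% of 297 and 46.0% of 7808. Both neuropilins held it and EFNA1 did not, while SEMA3A held 9 copies and was called in neither line. The searched 3′ UTRs were 2584 and 3188 bases for NRP1 and NRP2 and 790 for EFNA1. EFNA2, EFNB3 and UNC5A, lower in MDA-MB-436, and ROBO4 and SLIT2, lower in BoM-1833, did not hold it. Per kilobase of 3′ UTR, members lower in both lines held 0.35 copies and those called in neither 0.54. Over all genes these values were 0.77 and 0.45. The part of such pairing in the changes was not tested. The first match in 4 lowered members is shown with the word in capitals, 30 bases each, 5′ to 3′ (GRCh38).
NRP1 (chr10:33179725-33179754, minus strand): gattctttttggAAACTGagcgaaatccaa
NRP2 (chr2:205779341-205779370, plus strand): ttgtcattgacaAAACTGgatgctgaagat
SEMA3C (chr7:80742971-80743000, minus strand): tcacataagcccAAACTGatagacagtaac
EFNB2 (chr13:106490493-106490522, minus strand): tggttctatgctAAACTGtgaaaaatcaga

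The co-receptors and intracellular mediators of these pathways were followed with a list of 86 genes. In MDA-MB-436, 21 of 76 tested were called, 8 higher and 13 lower, 27.6% against 22.1% of all genes. In BoM-1833, 13 of 70 were called, 3 higher and 10 lower, 18.6% against 10.9%. With the same sign, 5 of the 69 with a test in each line passed in both, 7.25% against 5.67% of all genes, with CFL1, ENAH, RAC1 and ROCK1 lower and DAG1 higher. CFL1, the actin-severing cofilin at the end of semaphorin and ephrin signalling, had mean normalized counts (± SD, n = 3) going from 19989.8 ± 1163 to 11909 ± 278 in the first line; BoM-1833 values went from 18335 ± 1259.6 to 15595 ± 570.0. CFL1 fell by 0.75 (SE 0.07, DESeq2 adjusted p = 1.27e-27) and by 0.23 (SE 0.06, DESeq2 adjusted p = 0.0029) per the authors' deposited table. ENAH, an actin-elongating protein that binds ROBO1, fell by 0.68 in MDA-MB-436 (SE 0.07, DESeq2 adjusted p = 2.3e-22) and, in the other line, by 0.58 (SE 0.08, DESeq2 adjusted p = 7.76e-10) per the authors' deposited table. RAC1, the small GTPase of lamellipodia, fell by 0.48 and 0.21 per the authors' deposited table (SE 0.06, DESeq2 adjusted p = 6.18e-13, and SE 0.06, DESeq2 adjusted p = 0.00731). ROCK1, a kinase downstream of RHOA, had log2 fold changes of -0.32 and -0.22, and DAG1, the SLIT-binding dystroglycan, of 0.30 and 0.22 per the authors' deposited table, with DESeq2 adjusted p of 0.000412, 0.0409, 0.0389 and 0.0323. ROCK1 and DAG1 lost their BoM-1833 calls, and DAG1 its MDA-MB-436 call, under limma and under edgeR with TMM or RLE factors, and not under edgeR without a count filter. In BoM-1833 a DESeq2 refit lost CFL1 without siPHF19 replicate 1, at adjusted p = 0.0627, and RAC1 without siPHF19 replicate 1 or 2, at adjusted p of 0.101 and 0.0985. ROCK1 lost its BoM-1833 call without siNT replicate 2 or 3 or any siPHF19 replicate, with adjusted p up to 0.288, and DAG1 in either line without siNT replicate 2 or any siPHF19 replicate, with adjusted p up to 0.283.

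Other pathway genes named here were called in 1 line, and of these the difference between lines passed the z test for L1CAM. Over the list it passed for 6 of the 69 genes tested in both lines, 8.70% against 4.89% of all genes. Among the 6 were also CFL1 (z test adjusted p = 2.31e-06) and RAC1 (z test adjusted p = 0.0374). The RAC1 difference was lost in 12 of 15 alternative fits and the CFL1 difference in 0. L1CAM, an adhesion molecule that joins NRP1 in the SEMA3A receptor, fell by 0.57 in MDA-MB-436 per the authors' deposited table (SE 0.07, DESeq2 adjusted p = 3.2e-13), and its value in BoM-1833 was 0.18 (SE 0.08, DESeq2 adjusted p = 0.132), with an adjusted p of 8.19e-10 for the difference. DPYSL3, a collapsin response mediator, fell by 0.50 in MDA-MB-436 per the authors' deposited table (SE 0.07, DESeq2 adjusted p = 6.84e-11), against -0.17 in BoM-1833, with an adjusted p of 0.575 for the difference. In BoM-1833, DSCAM, a netrin co-receptor, went from 66.1 ± 8.65 to 26.0 ± 5.24 counts and fell by 1.34 per the authors' deposited table (SE 0.32, DESeq2 adjusted p = 0.00064); DSCAM was at 0 in MDA-MB-436. KDR, the VEGF receptor that partners with NRP1, went from 158 ± 20.4 to 93.3 ± 2.79 counts and fell by 0.76 there per the authors' deposited table (SE 0.19, DESeq2 adjusted p = 0.00186), a call lost without siNT replicate 2, at adjusted p = 0.0515. The KDR value in MDA-MB-436 was -0.56 per the authors' deposited table (SE 0.33, DESeq2 adjusted p = 0.224), with an adjusted p of 0.862 for the difference. The counts of calls moved with single libraries. In MDA-MB-436 the list gave 12 calls without siNT replicate 2, 10 without siPHF19 replicate 1 and 12 without siPHF19 replicate 3. It gave 25 without siNT replicate 1 and 30 without siNT replicate 3, where 17 were higher and 13 lower, the reverse of the balance with all libraries. In BoM-1833 it gave 18 without siNT replicate 1, and 5, 7, 3, 4 and 5 without siNT replicate 2, siNT replicate 3, and siPHF19 replicates 1, 2 and 3. Counts over all genes in the same fits are not given here. Whether these shifts are particular to the list therefore cannot be told.

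**Figure D5:**
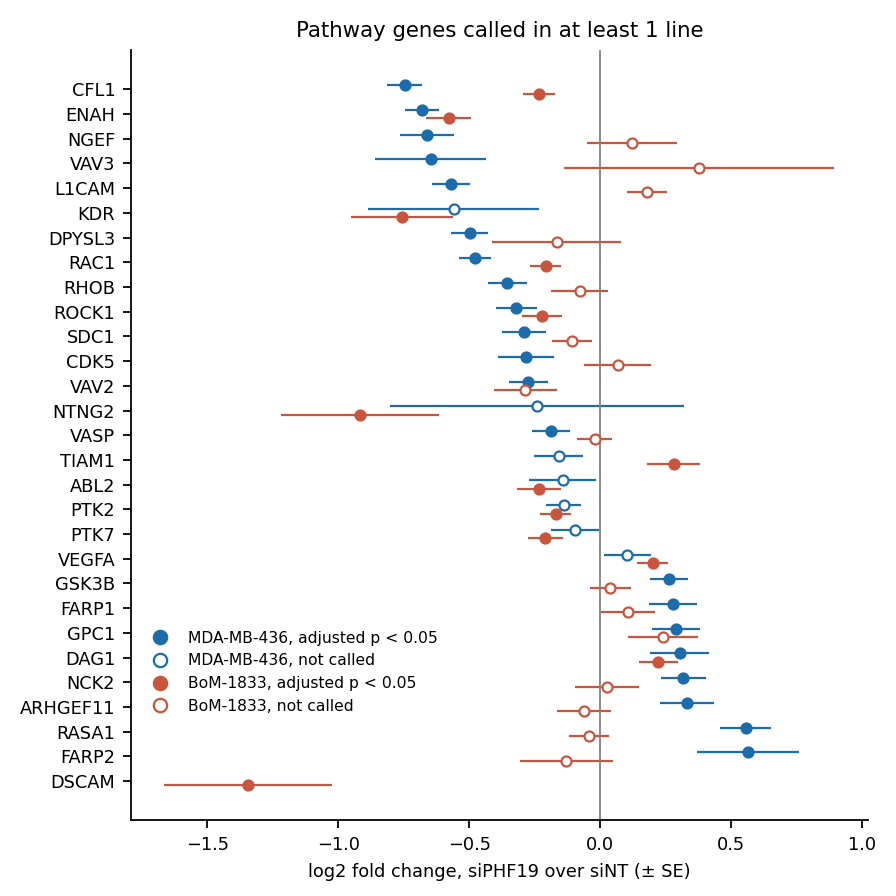
Log2 fold change (x axis), siPHF19 over siNT, of the pathway genes called in at least 1 line, with standard errors, MDA-MB-436 in blue and BoM-1833 in red; filled points are called. CFL1, ENAH, RAC1 and ROCK1 lie below 0 and DAG1 above 0 with filled points in both lines.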

How the data were processed

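RNA-seq libraries were prepared with a stranded mRNA kit, per the labels' protocols. The submitters' processing notes name STAR, RSEM 1.3.1, DESeq2 1.46.0 and the build hg38; the annotation and strand setting are not given in the sources used here. The deposited tables hold, per line, counts divided by size factors, which the authors normalized within the line (unit: signal), with the authors' log2 fold changes, Wald statistics (a score), p-values and adjusted p-values. These deposited DESeq2 results were the main test, called at adjusted p under 0.05. Each normalized column was a whole multiple of 1 step for 100% of values within 0.01, so whole reads were recovered. DESeq2 1.42.0 on these reads gave the same 3143 and 1411 calls as the deposit. Alternatives were edgeR 4.0.16, limma 3.58.1 (log2 of count plus 1 or 10, mean count at least 10), no low-count filter, a replicate block, other thresholds and single libraries left out. On simulated data, 200 genes were changed by 1 on the log2 scale and genes with few reads were left out. DESeq2 found 91.5% of the changed genes among 13171 for MDA-MB-436, with 22 false calls. For BoM-1833 it found 94.5% among 12723 genes, with 14 false calls. On the same simulated data edgeR and limma each found 93% with 15 false calls for MDA-MB-436, and 96% with 14 for BoM-1833. False calls made up more than 0.05 of all calls for each program and line. These rates do not apply to smaller changes, which most called members had, or to genes with few reads. Levels per kilobase used union exons of GENCODE 29 and recovered reads. Named genes were PHF19, every member called in either line or different between lines, the most counted member of each family, and the pathway genes with the largest statistics or called in both lines. SEMA3A, FLT1, NTNG2, other SEMA genes beside a family count and the sequences shown were added after their values were seen. The members and lists were chosen with earlier results of these data known.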

Additional observations from a re-analysis of the deposited data

Results flagged for a closer look

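The response to PHF19 siRNA differed between the lines for 7 of the 44 guidance genes tested in both, 15.9% against 4.89% of all genes. Each passed a z test of the difference adjusted over all genes tested in both lines. MDA-MB-436 minus BoM-1833 on the log2 scale, the differences were -0.82 (SE 0.11, adjusted p = 3.77e-10) for SEMA3C, -0.88 (SE 0.17, adjusted p = 3.14e-05) for EFNB2 and 1.79 (SE 0.37, adjusted p = 0.000148) for SEMA3D. They were -0.70 (SE 0.15, adjusted p = 0.000161) for EFNA5, -0.54 (SE 0.12, adjusted p = 0.000337) for NRP1, 0.58 (SE 0.14, adjusted p = 0.0019) for SLIT2 and -0.51 (SE 0.16, adjusted p = 0.0333) for PLXND1. The PLXND1 difference was lost in 11 of 15 alternative fits. SEMA3C, EFNA5, PLXND1, SEMA3D and SLIT2 had values of opposite sign in the lines, while NRP1 and EFNB2 were negative in both. Each of the genes with opposite signs was called in only 1 line per the authors' deposited table, so its sign in the other is uncertain.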

How the results depend on the processing

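Calls at an adjusted p under 0.05 were recomputed by other programs, filters and the replicate block and without single libraries, 14 fits in all per line. Of the 18 calls among guidance genes in MDA-MB-436, 7 were lost under at least 1 fit and 11 under none that gave an adjusted p, which for UNC5C were only 4 of the 14. Of the 9 in BoM-1833, 8 were lost under none and EPHB3, with 13 fits, was lost under some; of the 7 differences between lines, 6 were lost under none. None of these reversed. In MDA-MB-436 the count of called guidance genes was 10 at an adjusted p under 0.01 and 10 to 16 with 1 replicate left out; in BoM-1833 it was 8 to 11 with 1 left out. Called in both lines were 2 to 5 with 1 left out, 5 without BoM-1833 siNT replicate 1, and 6 by edgeR without a count filter. Differences between lines numbered 6 to 8 with 1 left out, 8 by the edgeR interaction and 10 by the DESeq2 interaction. With 1 replicate left out the called pathway genes numbered 10 to 30 for MDA-MB-436 and 3 to 18 for BoM-1833, and they were 8 in the latter by edgeR with RLE factors and 8 by limma with a pseudocount of 1. Counts over all genes with 1 replicate left out are not given here, so these ranges cannot be set against them. The sign turned with 1 library left out for values near 0 that were never called: EPHA2 in MDA-MB-436 ranged from -0.033 to 0.053, NTN4 from -0.065 to 0.022 and PLXNA3 from -0.079 to 0.116. Negative without siNT replicate 1 or siPHF19 replicate 3 was EPHA2, at -0.033 and -0.018; NTN4 was positive without siNT replicate 3 or siPHF19 replicate 2, at 0.022 and 0.014; PLXNA3 was negative without siNT replicate 1 or siPHF19 replicate 2, at -0.079 and -0.022. Same-numbered libraries showed no sign of pairing, with correlations of deviation from -0.31 to 0.04. The best correlation with a library of another number ran from 0.01 to 0.33. With 3 libraries per group these values cannot exclude pairing. With the replicate block the called guidance genes numbered 10 and 8 by line, those called in both lines 2, those differing between lines 6, and the called pathway genes 10 and 2; over all genes the block gave 1610 and 610 calls in place of 3143 and 1411. The cause of these shifts was not tested, and fits with 1 library left out also rest on fewer libraries. Depth limits the genes with few reads, such as UNC5C, EFNA2 and NRP2 in MDA-MB-436 and EPHB3 in BoM-1833.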
